A study of Mus musculus with 3 samples.

Results

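The Sox genes considered here are 10 members of the mouse Sox family of transcription factors: Sox1, Sox2 and Sox3 of the SoxB1 group, Sox4 and Sox11 of SoxC, Sox7, Sox17 and Sox18 of SoxF, Sox13 of SoxD, and Sox15. Every probe set whose platform annotation gives 1 of these symbols, and no other, was taken, which gave 26 probe sets of the 34945 on the array that carry a single symbol, and 10 genes of 18193 named. The RNA was that of undifferentiated F9, an embryonal carcinoma line of the mouse that resembles cells of the early embryo and can be induced to form endoderm. The cells grew on dishes coated with 0.2% gelatin with 10% fetal calf serum and were harvested at about 80% confluence without any differentiating agent. The single group holds 3 arrays, 1 for each labelled replicate, and there is no treated, differentiated or other cell type to set them against. F9 is 1 established line, so the 3 arrays carry no variation between lines.

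SOX proteins bind a short DNA element through a high mobility group (HMG) box, bend the helix, and select their target genes together with partner factors. In pluripotent cells Sox2 works with the POU factor Oct4 on joint SOX and octamer elements. SoxB1 factors also keep neural progenitors from differentiating, SoxC factors act in neurons and many embryonic tissues, and SoxF factors act in endoderm and blood vessels.

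A probe set was called above background when its log2 signal exceeded that array's threshold by limma's moderated test (one-sided, Benjamini-Hochberg adjusted p under 0.05 over all 45101 probe sets). The threshold was the 95th percentile of 126 probe sets for families with narrow expression (keratin-associated proteins of hair, and olfactory, taste and vomeronasal receptors). On replicates 1, 2 and 3 this was 44.6, 46.1 and 43.2. Signals are linear intensities in the deposited scaling, and log2 values are given relative to the threshold with the standard error (SE) of the fit. Whether the replicates were separate cultures is not in the labels, and the spread behind each p-value may therefore be technical. The signal of a probe set depends on how well its probes bind, so levels were compared with the threshold and between arrays, and not between genes. Of 8 embryonal carcinoma markers 7 were above background, beside 51.1% of all named genes. Fut4 alone, at 15.1 ± 11.4 (SD, n = 3), was not called. The marker list was chosen with earlier results of these data known, so the count is no independent check of the label. Pou5f1, Nanog and Utf1 in it also belong to lists given below.

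Of the 10 Sox genes, 6 were above background, counting each gene by its probe set with the highest mean signal: Sox2, Sox3, Sox4, Sox7, Sox11 and Sox13. Sox1, Sox15, Sox17 and Sox18 were not. Over all named genes outside the background families the share was 51.1%, so 6 of 10 lies near that of the array as a whole. The median log2 signal over the threshold was 1.15 for the 10 Sox genes, beside 0.72 for all named genes. Taking the highest of several probe sets favours genes with many, such as Sox4 and Sox11. Among the 26 probe sets 8 were called, beside 45.2% of all named probe sets. Sox4 and Sox11 together hold 14 of the 26, of which 4 were called. The median over the 26 probe sets was 0.37, beside 0.16 for all named probe sets. By group, 2 of 3 SoxB1 genes, 2 of 2 SoxC genes and 1 of 3 SoxF genes passed. The groups are too small for these counts to set one apart from another, and the counts were not tested against each other.

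**Figure D1:**
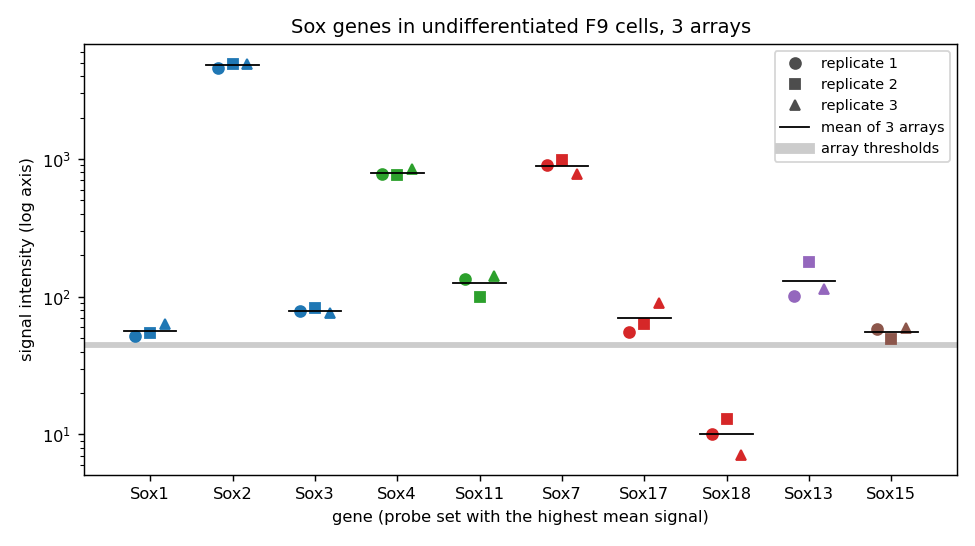
Signal intensity (log axis) of each Sox gene on the 3 arrays, by its probe set with the highest mean; symbols mark replicates, colours mark Sox groups, the black line is the mean and the grey band spans the 3 array thresholds. Sox2 stands at 4554 to 4928, Sox4 and Sox7 between 770.1 and 989.7, Sox1, Sox15 and Sox17 just over the band, and Sox18 below it.

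The upstream sequences of 6 of the 10 genes were found in RefSeq's GRCm38.p6 promoter table: Sox1, Sox2, Sox4, Sox11, Sox13 and Sox15. Each window runs from 250 bases before the gene's start to 50 after it. Those of Sox2 and Sox4, which were called, and of Sox1 and Sox15, which were not, are shown so that the DNA can be set beside the calls. Capitals mark matches on either strand to the octamer ATGCAAAT, the element POU factors bind, to the SOX core AACAAT, and to the CCAAT box CCAAT. The windows are Sox2 at chr3:34649745-34650044 (plus strand), Sox1 at chr8:12395269-12395568 (plus strand), Sox4 at chr13:28953650-28953949 (minus strand) and Sox15 at chr11:69654787-69655086 (plus strand).
Sox2: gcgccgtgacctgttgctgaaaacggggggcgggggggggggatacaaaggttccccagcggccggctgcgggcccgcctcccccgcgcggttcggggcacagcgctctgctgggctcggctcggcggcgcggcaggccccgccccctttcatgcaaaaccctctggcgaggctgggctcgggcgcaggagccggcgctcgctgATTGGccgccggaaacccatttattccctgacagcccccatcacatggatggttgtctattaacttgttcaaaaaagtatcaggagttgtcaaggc
Sox1: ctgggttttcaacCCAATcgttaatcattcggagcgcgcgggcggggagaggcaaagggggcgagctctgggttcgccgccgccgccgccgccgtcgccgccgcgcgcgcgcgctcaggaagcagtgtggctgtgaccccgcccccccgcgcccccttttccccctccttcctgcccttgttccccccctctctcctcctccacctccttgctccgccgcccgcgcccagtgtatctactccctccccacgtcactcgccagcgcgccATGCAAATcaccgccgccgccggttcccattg
Sox4: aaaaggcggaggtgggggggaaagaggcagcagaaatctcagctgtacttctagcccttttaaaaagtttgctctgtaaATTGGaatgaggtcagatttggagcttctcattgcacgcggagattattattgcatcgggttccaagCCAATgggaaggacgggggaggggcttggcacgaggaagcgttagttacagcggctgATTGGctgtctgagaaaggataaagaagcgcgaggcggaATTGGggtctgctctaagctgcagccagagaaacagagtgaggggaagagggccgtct
Sox15: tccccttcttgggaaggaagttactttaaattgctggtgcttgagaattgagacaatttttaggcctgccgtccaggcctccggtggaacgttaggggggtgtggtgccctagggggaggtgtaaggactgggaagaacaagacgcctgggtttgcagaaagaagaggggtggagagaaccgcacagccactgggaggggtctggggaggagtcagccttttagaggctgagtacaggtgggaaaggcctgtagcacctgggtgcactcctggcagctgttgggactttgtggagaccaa

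The octamer was found in 1 of the 6 windows, that of Sox1, from 19 to 26 bases after the start. The octamer occurs in 1.74% of all 32851 promoter windows of 300 bases. The exact letters AACAAT of the SOX core were in none of the 6 windows and in 10.7% of all windows. Other forms of the SOX site were not searched. The CCAAT box was present 4 times in the Sox4 window and 1 time each in those of Sox1, Sox2 and Sox11, and 37.4% of all windows hold it. It ended 42 bases before the start in Sox2, on the minus strand. The window of Sox1 had 70.7% G and C with 37 CpG dinucleotides and that of Sox2 had 66.3% with 27, while that of Sox4 had 52% with 12 and that of Sox15 had 56% with 5. Sox13 and Sox11, both called, had 73.3% with 40 and 58.7% with 21. The median window had 52.7% and 7 CpG. These matches describe letters in the windows only, and no binding was measured.

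Sox2, the SoxB1 factor required for the pluripotent epiblast, read 4554, 4899 and 4928 on replicates 1, 2 and 3. All 3 arrays lay more than 6 log2 units over their thresholds, and the fitted height was 6.75 ± 0.111 (SE; limma adjusted p = 0.000106). The gene has a single probe set, so no second measurement on the array checks it. Sox2ot, a noncoding RNA gene that overlaps Sox2, had a signal of 16.0 ± 11.5 (SD, n = 3) and was not called.

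Sox3, the X-linked SoxB1 gene that is also active in early neural tissue, had signals of 78.4, 83.3 and 75.8 on replicates 1, 2 and 3 at its higher probe set, 1435192_at. These values spanned only 0.04 log2 units once each was set against its own threshold, the smallest range among the 26 probe sets. The height over the threshold was therefore called although it was modest, at 0.83 ± 0.105 (SE; limma adjusted p = 0.00492). At the 99th percentile of the background the call was lost (0.45 log2 units, limma adjusted p = 0.138). The other Sox3 probe set, 1450485_at, gave 65.6 on replicate 1, against 3.64 on replicate 2 and 6.86 on replicate 3, a range of 4.22 log2 units relative to the thresholds. One array alone exceeded the threshold there, and the probe set was not called (-1.92 ± 1.00, SE; limma adjusted p = 1.000).

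Sox1, a SoxB1 gene known as an early marker of neural commitment, was not called above background on either probe set. Its higher one, 1438729_at, had signals of 51.5, 54.2 and 63.6 on replicates 1, 2 and 3, over the threshold on each array. The excess of 0.33 ± 0.137 log2 units (SE) did not pass limma's test (adjusted p = 0.11). The mean signal of 1438729_at was nevertheless higher than that of 125 background probe sets. The lower one, 1422205_at, stayed between 3.46 and 5.63, with a mean higher than that of 24 background probe sets. Among neural progenitor markers 1 of 6 measured was called, beside 51.1% of all named genes. The summed signal of these markers ranged from 171 to 219.5 over the arrays.

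Both SoxC genes were called. Sox4, which acts in neurons, lymphocytes and other developing tissues, gave 775, 770.1 and 846 at 1433575_at, a height of 4.16 ± 0.118 log2 units (SE; limma adjusted p = 0.00013). That gene has 8 probe sets and they did not agree: 3 were called and 5 were not. Also called were 1419155_a_at, at 163 ± 13.4, and 1419157_at, at 143 ± 9.17 (SD, n = 3 each), with limma adjusted p of 0.000615 and 0.000706. Next below, 1449370_at read 109, 97.8 and 43.2 and 1419156_at read 106, 43.6 and 83.8 on replicates 1, 2 and 3. Each of these exceeded the threshold on 2 of 3 arrays. Each was called when its lowest array was left out (replicate 3 for 1449370_at and replicate 2 for 1419156_at), a choice that raises the mean by construction. Neither was called when either of its other arrays was left out. The lowest, 1443778_at, stayed between 1.78 and 3.40. Among the 33 named genes with 8 probe sets, 25 likewise had some called and others not.

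Sox11, the other SoxC gene, had signals of 133, 100.1 and 142 on replicates 1, 2 and 3 at 1436790_a_at. All 3 arrays were over the threshold, at a height of 1.47 ± 0.177 log2 units (SE; limma adjusted p = 0.00419). It was called on 1 of its 6 probe sets. The second, 1453125_at, read 58.0, 55.0 and 84.1 and just missed (0.53 ± 0.201 log2 units, SE; limma adjusted p = 0.0903). The other 4 had mean signals from 23.6 to 39.9, with fitted heights of -1.31 to -0.17. Where the gene was represented by a probe set ending in _at, which is designed to be specific to 1 transcript, Sox11 was not called. Of 244 named genes with 6 probe sets, 8.61% had a single one called.

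**Figure D2:**
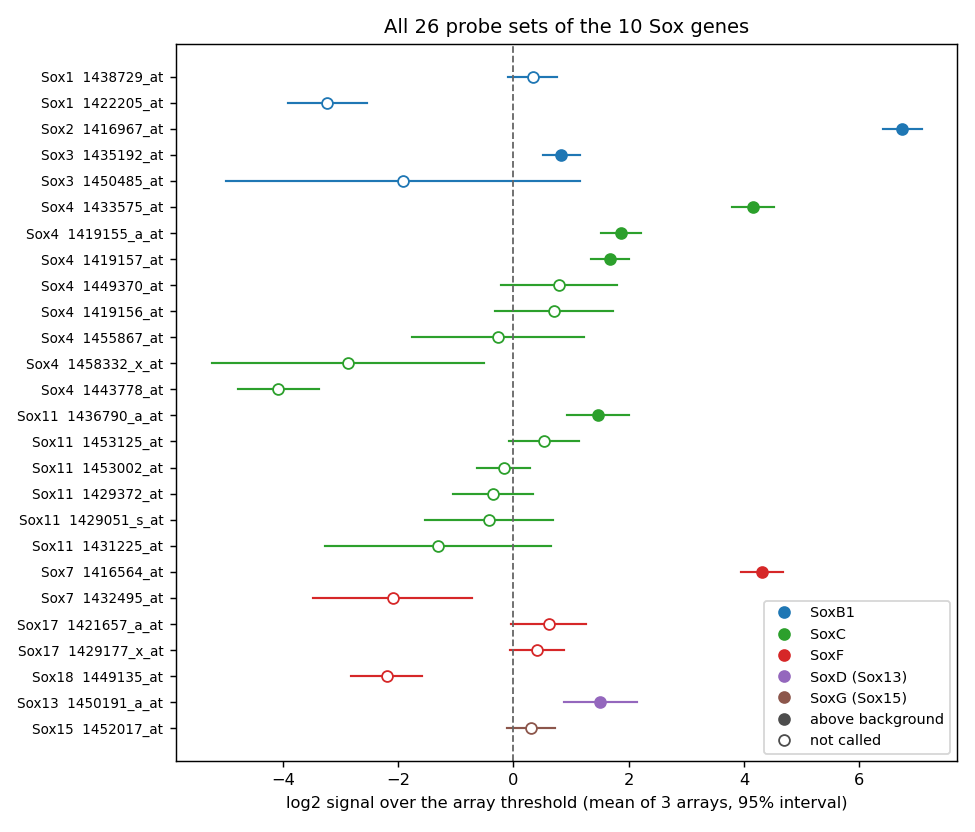
Height of all 26 probe sets over the array threshold (log2, mean of 3 arrays, horizontal bars are 95% intervals of the limma fit), grouped by gene and coloured by Sox group. Filled points are the 8 called probe sets; Sox3, Sox4, Sox7 and Sox11 each have filled and open points.

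Sox7, a SoxF gene that marks primitive and parietal endoderm in the embryo, was split between its 2 probe sets. At 1416564_at the signals were 898, 989.7 and 779 on replicates 1, 2 and 3, which put all 3 arrays more than 4 log2 units over the threshold (4.31 ± 0.119, SE; limma adjusted p = 0.000126). At 1432495_at they were 15.5, 15.9 and 4.64, and no array reached the threshold (-2.09 ± 0.453, SE; limma adjusted p = 1.000). Each array thus had the first probe set above and the second below its threshold. Split calls are frequent on the array: of 4685 named genes with 2 probe sets, 1240 (26.5%) had 1 called and 1 not.

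The called Sox7 probe set was designed on a curated RefSeq mRNA, per the platform annotation, and the uncalled one on another sequence record. Among 1007 named genes with 1 probe set of each kind, 279 had only 1 called, and in 220 of those (78.9%) it was the RefSeq one. Sox3 went the other way, with its RefSeq probe set 1450485_at uncalled and the other, 1435192_at, called. Sox1 and Sox17 also have 1 probe set of each kind, and none of these was called. Among the Sox probe sets 2 of 6 designed on RefSeq mRNAs were called, against 6 of 20 designed on other records. The shares over all named probe sets were 49% and 44.5%. Which Sox7 transcripts each probe set detects was not tested.

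Sox17, the SoxF factor of primitive and definitive endoderm, was over the threshold on all 3 arrays at both probe sets without being called. Each of these probe sets had a higher mean signal than 125 background probe sets. At 1421657_a_at the signals were 55.2, 63.3 and 90.7 (0.61 ± 0.211 log2 units, SE; limma adjusted p = 0.0736), with replicate 3 the highest. At 1429177_x_at they were 53.0, 74.3 and 52.1 (0.40 ± 0.153, SE; limma adjusted p = 0.0919), with replicate 2 the highest. The 95% interval of the first, -0.034 to 1.26, spans the threshold. Its call depended on the variance prior, since with a prior that follows the mean signal the same values gave an adjusted p of 0.0233.

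Sox18, the SoxF factor of blood and lymphatic vessels, had signals of 10.0, 12.9 and 7.07 on replicates 1, 2 and 3. All lay below the threshold (-2.20 ± 0.204 log2 units, SE; limma adjusted p = 1.000), and 59 of the 126 background probe sets had a lower mean. It was not called under any alternative tried. Among endothelial markers 1 of 8 was called, beside 51.1% of all named genes. It was Esam, which codes for an adhesion molecule of endothelial cells, at 412 ± 29.6 (SD, n = 3). Cdh5, Kdr and Tek, which define endothelium, were not called, at 48.7 ± 25.1, 44.0 ± 4.52 and 24.7 ± 6.28 (SD, n = 3 each).

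Sox13, a SoxD gene, read 101, 178 and 113 on replicates 1, 2 and 3 on its single probe set. It was called (1.51 ± 0.208 log2 units, SE; limma adjusted p = 0.00624), though replicate 2 stood 0.77 log2 units over replicate 1 and made its spread the widest among the 8 called probe sets. Sox15, a single-gene group close to SoxB1 in its HMG box, read 58.1, 49.1 and 59.1. Those signals were just over the threshold on each array and did not pass the test (0.31 ± 0.136, SE; limma adjusted p = 0.127). Their mean was higher than that of 125 background probe sets. Of 2 genes for partners of Sox15 in muscle precursors 1 was called, beside 51.1% of all named genes. Foxk1 was called at 169 ± 14.8, on 1 of its 3 probe sets, and Fhl3 was not at 11.6 ± 10.3 (SD, n = 3 each).

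The calls of 4 members sat close to the line. Sox3 was called at 0.83 log2 units, and Sox17, Sox1 and Sox15 were not called at 0.61, 0.33 and 0.31. The spread between arrays was smaller for called than for uncalled Sox probe sets, with a median range in height over the threshold of 0.21 against 0.82 log2 units. Over all named probe sets these medians were 0.27 and 1.36. A small spread is part of what the test needs, so the difference is a description. By signal, replicate 3 was the highest array for 11, replicate 2 for 9 and replicate 1 for 6 of the 26 probe sets. Replicate 3 was also the lowest for 10, replicate 2 for 10 and replicate 1 for 6.

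**Figure D3:**
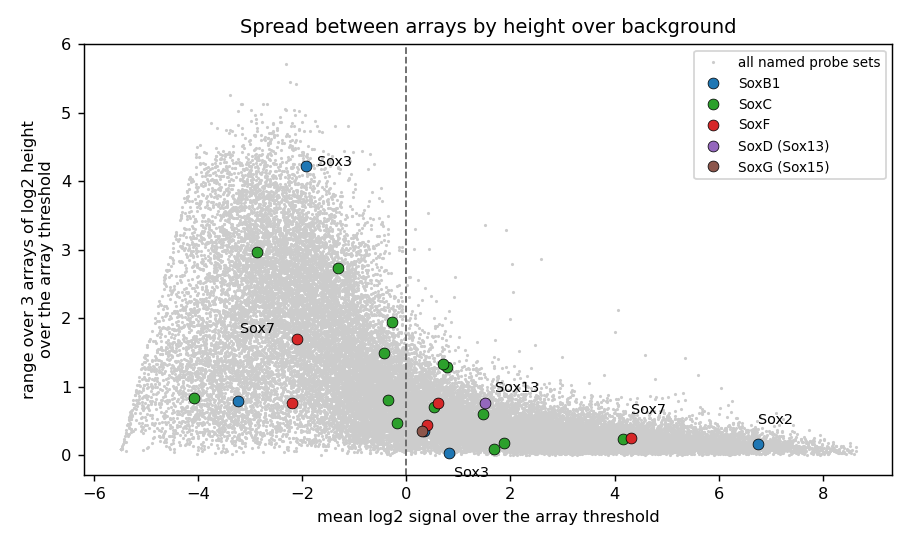
Range over the 3 arrays of the log2 height over each array's threshold, against the mean height, for all named probe sets (grey) and the 26 Sox probe sets (coloured by group). Sox2 (0.16), the highest Sox4 probe set (0.23) and the called Sox7 probe set (0.25) sit low on the right, and the uncalled Sox3 probe set reaches 4.22.

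The other Sox genes gave 2 of 10 above background, beside the 6 of 10 described above and 51.1% of all named genes. Sox21, a SoxB2 factor, read 404, 502 and 356 on replicates 1, 2 and 3 (3.22 ± 0.139 log2 units, SE; limma adjusted p = 0.000275) and was called on both of its probe sets. Sox12, the third SoxC gene, read 186, 200.4 and 158 (2.02 ± 0.119, SE; limma adjusted p = 0.000589) on 1 of its 3 probe sets. Sry, Sox5, Sox6 and Sox8 were not called, at mean signals of 38.9, 30.0, 50.9 and 2.03. With Sox12 included, all 3 SoxC genes were called by their highest probe set. The probe sets called were 3 of 8 for Sox4, 1 of 6 for Sox11 and 1 of 3 for Sox12. Among all named genes with 8 and with 6 probe sets, 15.2% and 15.6% had none called, so such a call is frequent for genes of that size.

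Partners and targets of the family are given as counts of genes above background, beside 51.1% of all named genes. The lists were chosen with earlier results of these data known, and no count was tested. Genes with a known joint Sox2 and Oct4 element were called in 6 of 6 cases. They included Fgf4, a growth factor (1884 ± 145), Utf1, a chromatin protein (3183 ± 430), Fbxo15, an F-box gene (613 ± 25.2), and Nanog, a pluripotency factor (4866 ± 392; SD, n = 3 each). Of 5 measured POU partners 2 were called, Pou5f1, which codes for Oct4 (6809 ± 279), and Pou3f1 (275 ± 36.5). The neural POU genes Pou3f2 (12.6 ± 3.70) and Pou3f3 (16.0 ± 10.8) were not.

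Of 3 measured TCF/LEF genes, whose HMG box is related to that of SOX proteins, Tcf7l1 was called at 482 ± 21.5, while Lef1 (31.3 ± 15.7) and Tcf7l2 (59.7 ± 20.3; SD, n = 3 each) were not. Of 4 targets of SoxC factors 2 were called, near the 51.1% of all named genes. Tubb3 (1048 ± 70.6) and Tead2 (368 ± 50.5) passed, while Dcx (19.4 ± 11.6) and Map2 (39.9 ± 11.6; SD, n = 3 each) did not.

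Near the share of all named genes (51.1%), endoderm genes that accompany SoxF expression were called in 5 of 10 measured cases. These were the basement membrane genes Lama1 (420.2 ± 46.2), Lamb1 (250.4 ± 18.9), Col4a1 (1870.3 ± 374) and Col4a2 (699 ± 98.5), and the chemokine receptor gene Cxcr4 (78.6 ± 18.6; SD, n = 3 each). The endoderm factors Gata4 (52.8 ± 17.7) and Gata6 (57.5 ± 3.95), and the genes Pdgfra (37.6 ± 10.7) and Dab2 (72.0 ± 17.8), were not called (SD, n = 3 each). Gata6 and Dab2 missed narrowly, with limma adjusted p of 0.0507 and 0.0542. The number of endoderm genes called was 7 with olfactory receptors alone or the 90th percentile. It was 4 at the 99th percentile or without replicate 2. Visceral endoderm markers were called in 1 of 6 cases, with a summed signal of 217 to 271 over the arrays, and fibroblast markers in 1 of 8, with 258 to 276. The part that endoderm or other differentiated cells could play in the Sox7 signal was not tested.

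**Figure D4:**
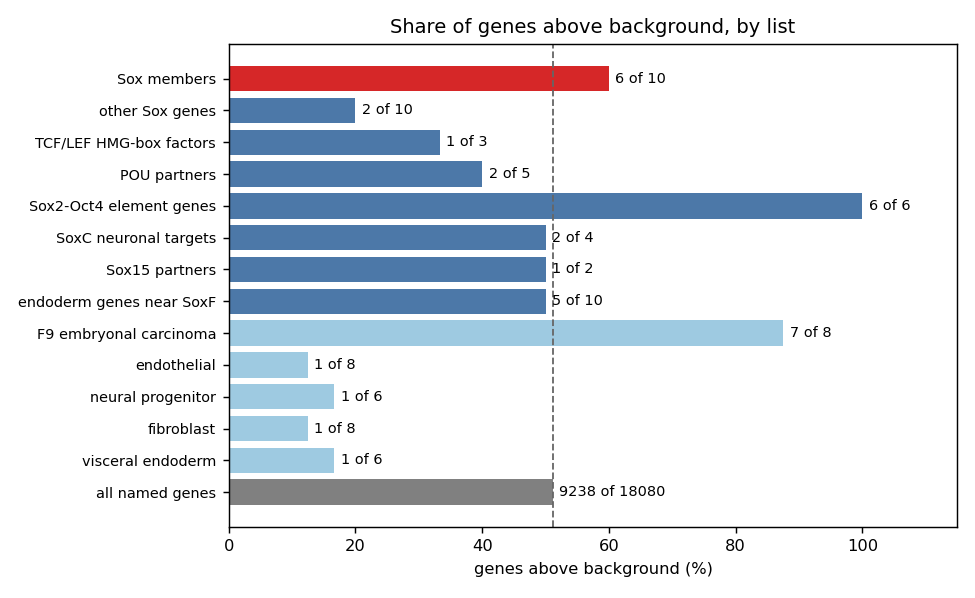
Share of genes above background (%, bars start at 0) for the 10 Sox genes (red), 7 related lists (dark blue), 5 marker lists (light blue) and all named genes (grey, dashed line at 51.1%); the count is printed at each bar. The Sox2-Oct4 element genes stand at 6 of 6 and the other Sox genes at 2 of 10.

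The number of Sox genes called ranged from 5 to 9 over the thresholds tried and stayed at 6 when 1 array was left out. With the 90th percentile of the background 9 of 10 were called, beside 53.4% of all named genes, and with the 99th percentile 5, beside 46.4%. With bacterial control probe sets as background 9 were called, beside 59.3%. Being over the threshold on all 3 arrays, without a test, held for 9, beside 53.8%. A variance prior that follows the mean gave 7, beside 51.9%. Olfactory receptors alone gave 6 and quantile normalization gave 6, each beside 51.2%.

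Without replicate 1, 2 or 3 the same 6 Sox genes were called each time, beside 48.2%, 48.5% and 48.6% of named genes. Choosing the probe set by suffix gave 5, beside 48.2%, and leaving out the _s_at and _x_at probe sets gave 6, beside 50.1%. Requiring every probe set of a gene to be called left 2, beside 31.3%. Those were Sox2 and Sox13, which have 1 probe set each and so cannot disagree. None of the 6 Sox genes with several probe sets had all of them called, as 26.4% of the 8999 named genes with several did.

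**Figure D5:**
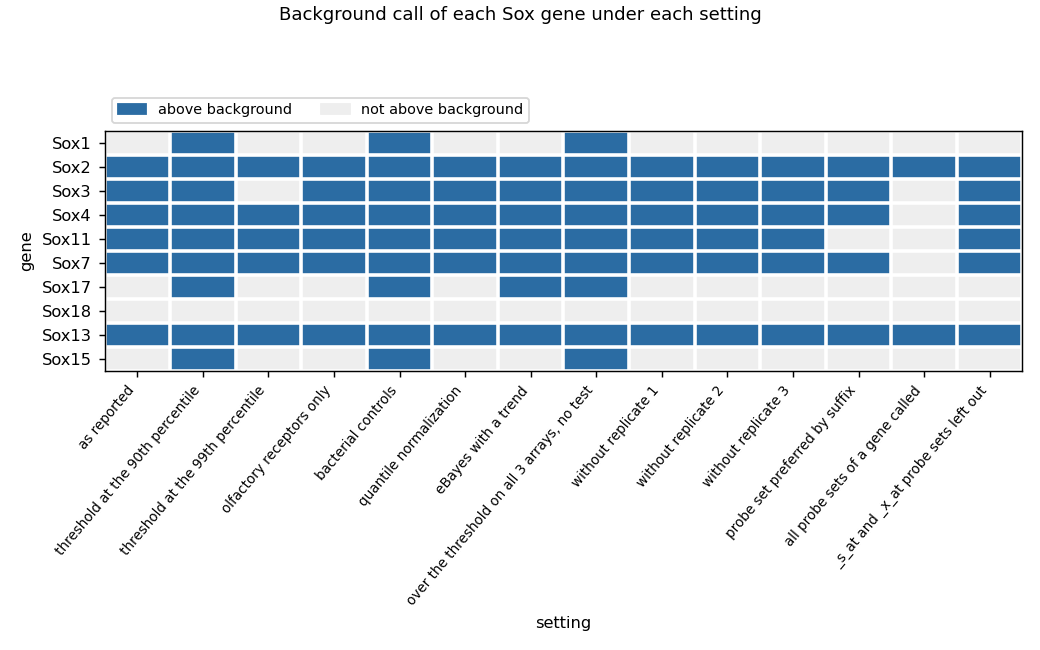
Background call of each Sox gene (rows) under each setting (columns); blue is above background and grey is not. Sox2 and Sox13 are blue in every column, Sox18 in none, and Sox1, Sox15 and Sox17 turn blue where the threshold is lowered or no test is applied. Sox17 is also blue with a variance prior that follows the mean.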

How the data were processed

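Total RNA from 3 F9 samples was measured on Affymetrix Mouse Genome 430 2.0 arrays. The authors deposited 1 intensity per probe set and array, on a linear scale, made with GCOS 1.4 per the submitters' processing notes. Which algorithm summarised the probes, how detection was called and which genome build applied is not given in the sources used here. After trimming 2% at each end, every array had a mean of 250.0, so differences in total RNA are hidden. Arrays have no read depth, and their number, 3, limits the precision.

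Signals below 1 were set to 1, and all signals were log2 transformed with no further normalization. Log2 signal minus log2 threshold was fitted by lmFit (intercept only) and eBayes over all probe sets, in limma 3.58.1 under R 4.3.3. Probe sets with several gene symbols (932) or none (9160) name no gene. All 10 Sox identifiers matched the GRCm38.p6 gene table with unchanged symbols. Calls were tested on simulated arrays. Members and lists were chosen with earlier results of these data known. Named are all Sox probe sets, the first 4 measured genes of each related list, and every called gene of the other Sox, TCF/LEF and endoderm lists; markers of cell types are given as counts, and those named singly (Fut4, Nes and the endothelial genes), like Sox2ot, were chosen after their values were seen. No gene is named by likeness of pattern, since 3 arrays of 1 group hold no pattern across conditions. Alternatives changed the threshold, its source, normalization, the variance prior, the probe set and the replicates used.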

Additional observations from a re-analysis of the deposited data

How the results depend on the processing

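The calls of Sox2 and Sox13 held, and Sox18 stayed uncalled, under each of the 13 alternatives run for a gene. The number of Sox probe sets called was 8, and 14 with the 90th percentile, 16 with bacterial controls and 13 by exceeding the threshold on all 3 arrays. Without 1 replicate it was 8 to 9. With a variance prior that follows the mean it was 12. That setting added 1449370_at and 1419156_at of Sox4, 1453125_at of Sox11 and 1421657_a_at of Sox17. The number of Sox genes fell to 2, from Sox2 and Sox13, when every probe set had to be called. With bacterial controls 4 other Sox genes, 2 TCF/LEF genes, 8 endoderm genes, 2 endothelial, 2 neural progenitor, 2 fibroblast and 3 visceral endoderm markers were called. When every probe set had to be called, 1 other Sox gene, 0 partners of Sox15 and 0 neural progenitor markers were. At the 99th percentile 0 neural progenitor and 0 visceral endoderm markers were called, and without 1 replicate 0 to 1 neural progenitor markers: the call of Nes was lost without replicate 1 or replicate 3.

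Some uncalled values near the threshold changed sign. At the 99th percentile Sox1 (1438729_at) lay at -0.046 and Sox15 at -0.070 log2 units. For Sox4, 1455867_at lay at 0.0503 with the 90th percentile, 0.72 with bacterial controls, and from -0.64 without replicate 1 to 0.34 without replicate 2. For Sox11, 1453002_at lay at 0.14 with the 90th percentile and 0.81 with bacterial controls, where it was called, and 1429372_at and 1429051_s_at at 0.63 and 0.56 with bacterial controls. The lower threshold is built into the 90th percentile and bacterial control settings, and the higher one into the 99th percentile. For 1455867_at, replicate 2 alone lay below its threshold, at -1.47 log2 units, with replicates 1 and 3 at 0.48 and 0.19. Why replicate 2 read low there was not tested. No paired analysis was possible because all samples form 1 group.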
